A study of Mus musculus with 12 samples.

Results

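Cluster 2, named RGC 1 by the authors, is a cluster of dividing radial glial cells (RGCs) from the embryonic mouse cortex. Its members are all nuclei that the authors' own clustering placed in Cluster 2, which came to 4346 of the 50550 nuclei in 25 clusters (8.60%) and made it the 2nd largest cluster. Counts were summed over the Cluster 2 nuclei of each embryo, and the embryo was the replicate.

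Single nuclei were sequenced from the cortices of C57BL/6J embryos whose dams had received daily intraperitoneal injections of saline or of 2.5 g/kg ethanol (EtOH), given as a 25% v/v solution in saline. The 6 injections ran from E8.5 to E13.5, and tissue was collected at E14.5 by the methods and at embryonic day 14 by the labels. The saline group held embryos S1-1, S1-2, S2-1, S2-2 and S2-4, and the EtOH group held E1-1, E1-2, E2-1, E2-2, E2-3 and E2-4. The digit after the letter names the dam, so that each treatment rests on 2 dams, and embryos of the same dam were taken as independent. Dams S1 and E1 formed batch 1 and dams S2 and E2 formed batch 2. Embryo S2-3 is listed among the saline samples and was not analysed here.

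Radial glia are the neural stem cells of the cortical ventricular zone. They keep contact with the ventricle through an apical junction, replicate their DNA in nuclei far from the ventricle and divide at its surface, and give rise to further radial glia, intermediate progenitors (IPCs) and neurons. Notch signalling through Hes factors keeps them undifferentiated, while SoxC factors and proneural factors accompany the step to neurons.

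The promoters of Top2a, the topoisomerase that untangles replicated chromosomes, and Mcm7, a subunit of the helicase that opens DNA for replication, are shown. Mitosis and DNA replication genes stand high in this cluster, the replication genes also in some other RGC clusters. The promoters of these groups of genes differ in the motifs they hold. Sequences are from RefSeq on GRCm38.p6 and run from 250 bases before to 50 after the start on the gene's strand. Capitals mark matches to 3 motifs, searched on both strands and shown as they read on the gene's strand. The first is the box CCAAT, which binds NF-Y. The second is the core of the cell-cycle homology region known from mitotic genes, TTTGAA. The third is an E2F-type motif known from replication genes, spelled GCGGGAA. Top2a lies at chr11:99024140-99024439 on the minus strand, and Mcm7 at chr5:138171834-138172133 on the minus strand.
Top2a: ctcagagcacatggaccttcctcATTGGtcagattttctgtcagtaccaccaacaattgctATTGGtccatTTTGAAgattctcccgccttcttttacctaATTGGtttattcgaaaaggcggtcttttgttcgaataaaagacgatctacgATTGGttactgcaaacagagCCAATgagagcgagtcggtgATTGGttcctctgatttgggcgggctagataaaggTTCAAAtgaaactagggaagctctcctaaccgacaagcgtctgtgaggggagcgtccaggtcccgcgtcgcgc
Mcm7: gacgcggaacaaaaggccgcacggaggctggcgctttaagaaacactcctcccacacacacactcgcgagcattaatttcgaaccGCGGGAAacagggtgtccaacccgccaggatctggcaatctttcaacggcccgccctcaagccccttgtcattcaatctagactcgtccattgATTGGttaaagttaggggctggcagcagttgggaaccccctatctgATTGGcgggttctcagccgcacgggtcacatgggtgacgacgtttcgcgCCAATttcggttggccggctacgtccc
The Top2a promoter held 6 matches to CCAAT and 2 to TTTGAA, and the Mcm7 promoter held 3 to CCAAT and 1 to GCGGGAA. A second Mcm7 promoter in the table, at chr5:138171217-138171516, held 1 match to each of these 2 motifs and is not shown. The homology region core TTTGAA was found in 29 of the 38 promoters matched to the mitosis list and in 2 of the 29 matched to the DNA replication list, against 17.9% of 32851 promoters of the same length. GCGGGAA was found in 3 of the 38 and 14 of the 29 promoters, against 4.60% of all. CCAAT was found in 31 of the 38 and 22 of the 29, against 37.4% of all. A match describes these letters only and is not evidence of binding. Hes1 had no entry in the promoter table.

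The nuclei of Cluster 2 were spread over all 11 embryos. The saline embryos gave 566, 451, 301, 690 and 753 nuclei in the order above, and the EtOH embryos gave 264, 210, 177, 339, 221 and 374. A nucleus held between 615 and 95347 unique transcript counts (UMIs), and the summed Cluster 2 counts ranged from 1317960 to 7306260 UMIs per embryo. The median UMIs per nucleus were 9599.5, 9265, 8962, 8709.5 and 6651 in the saline embryos and 4263.5, 5804, 6377, 6944, 6252 and 6432.5 in the EtOH embryos. The median in EtOH differed by -2625 UMIs (8637 ± 1159, SD, n = 5, against 6012 ± 931, n = 6; two-sided exact permutation p = 0.00433), and by -3122 UMIs without S2-4 (exact p = 0.00476). The difference was -4398.5 UMIs in batch 1 alone (exact p = 0.333) and -1606 in batch 2 alone (exact p = 0.0571), where few exchanges of labels are possible. Every pair of libraries shared between 1 and 18 cell barcodes over all clusters, and 62 Cluster 2 nuclei (1.43%) had a barcode that also occurred in another library.

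Saline embryo S2-4 stood apart from the other 4 saline embryos in expression and depth, where it lay with the EtOH embryos. On the first principal component of the Cluster 2 counts, which held 34.9% of the variance, the other saline embryos lay at -24.9, -27.3, -37.0 and -20.1, S2-4 at 13.3, and the EtOH embryos between 12.03 and 22.3. Its level lay within the range of the 6 EtOH embryos for 86.6% of the genes tested, against 55.5% to 63.1% for each of the other saline embryos. Genes of antisense type took 1.80% of the UMIs of S2-4, 1.09% to 1.31% in the other saline embryos and 1.64% to 1.88% in the EtOH embryos. Genes of at least 100 kb took 50.4% of its UMIs, 51.6% to 54.8% in the other saline embryos and 50.1% to 51.7% in the EtOH embryos. Its median depth was also the lowest of the saline group. The median depth of S2-4 was also lower than that of the other saline embryos in Cluster 12 (4400 UMIs against 5799 to 6411) and Cluster 1 (6137 against 7766 to 8665). In yield S2-4 lay with the saline embryos, with 7215 nuclei in all clusters (4437 to 7639 in the other saline embryos, 2346 to 4928 in EtOH) and 753 in Cluster 2, where the EtOH embryos had 177 to 374. Whether its label is right could not be settled from the files. The label was kept, and the comparisons of treatments are given with all embryos and without S2-4. S2-4 was set apart on these same expression values, so leaving it out widens the difference between the groups in part by that choice. Calls, folds and p values without S2-4 are therefore a description and no independent test.

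**Figure D1:**
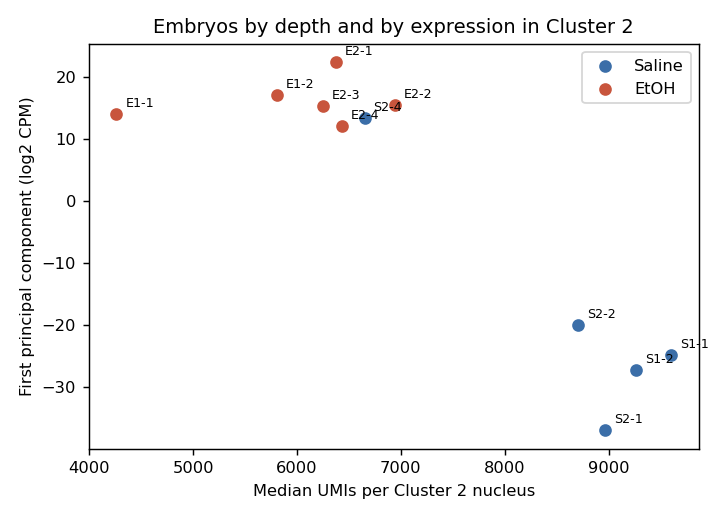
Each point is an embryo, coloured by treatment, with the median UMIs per Cluster 2 nucleus on the x axis and the first principal component of the log2 CPM of Cluster 2 on the y axis. The other 4 saline embryos lie between -37.0 and -20.1, while S2-4 at 13.3 lies among the EtOH embryos at 12.03 to 22.3.

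The markers given for the cluster were checked first, as a description, since the clusters had been drawn from the expression of these same nuclei. Levels are given as CPM, the count of a gene scaled to the total counts of the cluster in that embryo and not corrected for gene length, and as mean ± SD over 11 embryos. Hes1 (chr16:30064384-30067796, plus strand), the Notch-driven repressor that keeps progenitors undifferentiated, stood at 99.4 ± 26.8 CPM and was higher in Cluster 2 than in any other cluster. Its mean was 69.4 in Cluster 12, the non-mitotic RGCs, 47.0 in Cluster 3, the RGCs with interneuron precursor genes, 26.3 in Cluster 17, the mitotic IPCs, and 2.1 in Cluster 1, a projection neuron cluster. Top2a (chr11:98992943-99024189, minus strand) stood at 731 ± 130 CPM, second to 789 in Cluster 17 and above 583 in Cluster 3 and 94.7 in Cluster 12. Creb5 (chr6:53287270-53700376, plus strand), a transcription factor of the CREB family, stood at 2457 ± 169 CPM, below 2819 in Cluster 12 and above 945 in Cluster 17 and 71.9 in Cluster 1. The cluster thus carried all 3 of its markers, with Creb5 and Hes1 shared with Cluster 12 and Top2a with Clusters 17 and 3.

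The share of nuclei with a UMI for each marker differed more from the neurons of Cluster 1 than from the other progenitor clusters. Each nucleus was thinned to 2000 UMIs, which left out 9 Cluster 2 nuclei and kept 4337. Creb5 was found in 93.7% ± 2.05 of Cluster 2 nuclei and in 11.6% of Cluster 1 nuclei, where it is at a low level. Its share was 97.2% in Cluster 12, 64.9% in Cluster 3 and 62.5% in Cluster 17. Hes1 was found in 18.6% ± 4.99 of Cluster 2 nuclei (46.5% without thinning) and in 0.34% of Cluster 1 nuclei. Its share was 12.8% in Cluster 12, 8.41% in Cluster 3 and 3.29% in Cluster 17. Top2a was found in 58.9% ± 5.70, against 75.0% in Cluster 17, 42.4% in Cluster 3, 10.7% in Cluster 12 and 2.19% in Cluster 1. The median depth before thinning was 7486.5 UMIs in Cluster 2 and 6607.5 in Cluster 1.

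Genes of other cell types were found at low shares, and not all of them below Cluster 1. Eomes, the transcription factor of IPCs, was found in 3.10% of Cluster 2 nuclei after thinning, against 1.80% in Cluster 1 and 32.5% in Cluster 17. Gad2, a GABA-synthesising enzyme of interneurons, was found in 6.69%, against 5.33% in Cluster 1. The projection neuron factor Neurod2 was found in 2.58% of Cluster 2 nuclei and 38.6% of Cluster 1 nuclei. The neurogenic factor Neurog2 was found in 5.56%, against 1.86% in Cluster 1, and stood at 29.1 ± 3.2 CPM, below 69.3 in Cluster 12, 80.6 in Cluster 17 and 136 in Cluster 6. The 6 microglial markers summed to 38.2 CPM, against 18.4 in Cluster 1, with P2ry12 at 21.8 ± 9.52 CPM, Cx3cr1 at 14.8 ± 5.79, Csf1r at 0.94 and Aif1 at 0.13, and none was at 0 over all embryos. The 12 interneuron markers summed to 806 CPM, against 419 in Cluster 1.

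The mitosis genes, which build the spindle, condense chromosomes and drive cytokinesis, stood high as a group. All 40 were among the 3 clusters with the highest level in Cluster 2, all 40 were higher than in Clusters 12 and 3, and 7 were higher than in Cluster 17. Their summed level was 7088 ± 851 CPM, against 1322 in Cluster 12, 5552 in Cluster 3 and 7534 in Cluster 17. Those with the most counts, which also depend on gene length, were Top2a, Diaph3, a formin of the cytokinetic ring, at 693 ± 64.5 CPM, Smc4, a condensin subunit, at 377 CPM, and Knl1, a kinetochore scaffold, at 367 CPM. Diaph3 and Smc4 were at their highest of all clusters here. Of the 12 centrosome and spindle genes of inherited microcephaly, Mcph1, Cep152, Cep135, Cit and Nde1 were highest in Cluster 2. Of 33 DNA replication genes, 29 were in the top 3 clusters, led by Rad51b, a recombination repair factor, at 531 CPM and Pola1, a polymerase subunit, at 487 CPM. Only 6 of the 33 were higher than in Cluster 3, and 17 were higher than in Cluster 12. Their summed level was 3685 CPM, against 3879 in Cluster 3 and 3359 in Cluster 12, so a high level was shared with these RGC clusters.

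Genes of RGC identity and of the signals that radial glia receive lay mostly below Cluster 12 in their summed levels, the Wnt pathway apart. The RGC identity genes summed to 3308 CPM, against 3853 in Cluster 12 and 5663 in Cluster 3, the Notch pathway to 3424 against 3962 in Cluster 12, the hedgehog pathway to 4110 against 5368 and the dorsal factors to 7084 against 9370. Gene by gene the dorsal factors went the other way, with 10 of 14 higher than in Cluster 12. Of the other lists, 7 of 18 RGC identity, 5 of 20 Notch and 4 of 12 hedgehog genes were higher than in Cluster 12. The Wnt pathway summed to 3359 CPM, against 3034 in Cluster 12 and 2606 in Cluster 3. It was higher in Cluster 20, another RGC cluster, at 4104 CPM, and in Cluster 21, the cortical hem RGCs, at 9876 CPM. Of 18 RGC identity genes 12 were in the top 3 clusters, and Hes1, Sox9 and Ttyh1 were highest in Cluster 2. Those with the most counts were Ptprz1, a receptor phosphatase, at 882 CPM, Slc1a3, a glutamate transporter, at 412 CPM, Ddah1 at 362 CPM and the dorsal forebrain factor Pax6 at 336 ± 50.5 CPM. Of 36 Wnt pathway genes 20 were in the top 3 clusters, and the receptors Fzd9 and Ror2 and the nuclear effector Lef1 were highest in Cluster 2. Lef1 stood at 243 CPM, against 100 in Cluster 12. Among dorsal patterning factors Meis2 stood at 4539 CPM, Gli3 at 1424, Nr2f1 at 346 and Lhx2 at 291. Of the Notch pathway, the co-activators Maml2 and Maml3 stood at 1171 and 716 CPM, the receptor Notch2 at 305 and its antagonist Numb at 244. The receptors Cdon of hedgehog, Fgfr2 of FGF and Bmpr1b of BMP signalling stood at 1579, 745 and 431 CPM. The adhesion gene Cdh2 led the apical junction genes at 1484 CPM.

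Neurogenic commitment genes were low by comparison, with 0 of 12 in the top 3 clusters. Elavl4, a neuronal RNA-binding protein with the most counts of the list, stood at 235 CPM and Sox11 at 218 CPM. Of the 100 genes that the authors list as markers of Cluster 2, chosen on these nuclei, 97 were in its top 3 and 32 at their highest. The most selective of them were Adamts19, a secreted protease, at 180 ± 61.0 CPM and 3.92 times its level in Cluster 12, and Ltbp1, which binds latent TGF-beta, at 3.48 times its highest level elsewhere. Eya1, Tnfrsf19 and Atxn7 followed at ratios of 2.66, 2.29 and 1.39.

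**Figure D2:**
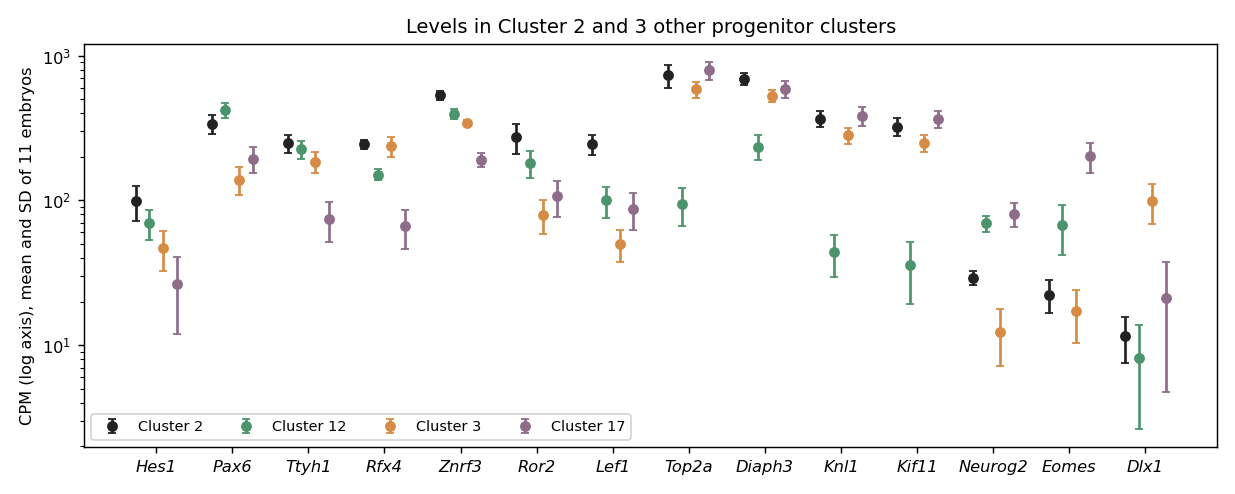
Mean CPM over embryos of genes that describe Cluster 2 is plotted on a log axis for Clusters 2, 12, 3 and 17, with bars for the SD of 11 embryos. Top2a falls from 731 CPM in Cluster 2 to 94.7 in Cluster 12, whereas Hes1 at 99.4 and 69.4 CPM differs less between them.

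The nuclei of Cluster 2 were each assigned to a phase of the cycle by relative scores, so a spread over the phases is in part set by the method. Phases were called from thinned nuclei with the S and G2/M gene lists that the authors give, of which 9 S and 11 G2/M genes were used. This put 1405 nuclei in G1, 1472 in S and 1460 in G2/M, with 692 nuclei (15.96%) within 0.05 of a dividing line. Of the calls, 72.4% were the same without thinning, and 72.2% with the wider lists of DNA replication and mitosis genes. The nuclei called G2/M held the most RNA, with a mean over embryos of the median depth of 8341 ± 1823 UMIs against 6708 ± 1679 in G1, and they were above G1 in 11 of 11 embryos.

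Levels differed between the phases in genes that the calls had not used, given here as a description because the calls come from the same nuclei. Pola1 stood at 433 CPM in G1, 729 in S and 330 in G2/M. Knl1 stood at 205 CPM in G1, 270 in S and 586 in G2/M. Of 24 DNA replication genes outside the calling lists, 23 were higher in S than in G1 in at least 10 of the 11 embryos, with a median ratio of 1.80, and all 33 mitosis genes outside those lists were higher in G2/M than in G1 in at least 10 embryos, with a median ratio of 2.99. Of all 9127 genes outside those lists with a mean of at least 10 CPM, 8.55% were higher in S than in G1 by the same count of embryos, 9.38% were higher in G2/M than in G1 and 10.9% were lower in G2/M.

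Of 18 RGC identity genes, 7 were higher in G2/M than in G1 in at least 10 of the 11 embryos, 1 was lower and the others had no such order, beside the 9.38% and 10.9% of all genes. Pax6 stood at 273 CPM in G1, 321 in S and 404 in G2/M, higher in G2/M than in G1 in 11 of 11 embryos. Notch2, Tcf7l1, Cdk6 and Ccnd2 were also higher in G2/M than in G1 in 11 of 11 embryos, and Ccnd2, the D-type cyclin of radial glia, went from 267 to 361 CPM. Of 24 Wnt pathway genes 12 were higher in G1 than in G2/M in at least 10 embryos and 6 were lower. Markers of other cell types moved in the same direction, with 8 of 17 synaptic genes, 4 of 11 projection neuron markers and 2 of 3 hem markers higher in G1 in at least 10 embryos, among them Map2 at 1209 CPM in G1 and 844 in G2/M, Wnt8b at 36.2 and 13.8 and Rspo3 at 63.2 and 28.9. The part of RNA from those cells was not tested. Elavl4, of the commitment genes, stood at 284 CPM in G1 and 212 in G2/M, higher in G1 in 11 of 11 embryos, and Neurog2 at 39.0 and 24.3, higher in 9 of 11. Lef1 stood at 314 CPM in G1 against 206 in S, and Ror2 at 303 in G1 against 235 in G2/M. Hes1 differed little, at 90.6, 104 and 103 CPM in G1, S and G2/M.

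**Figure D3:**
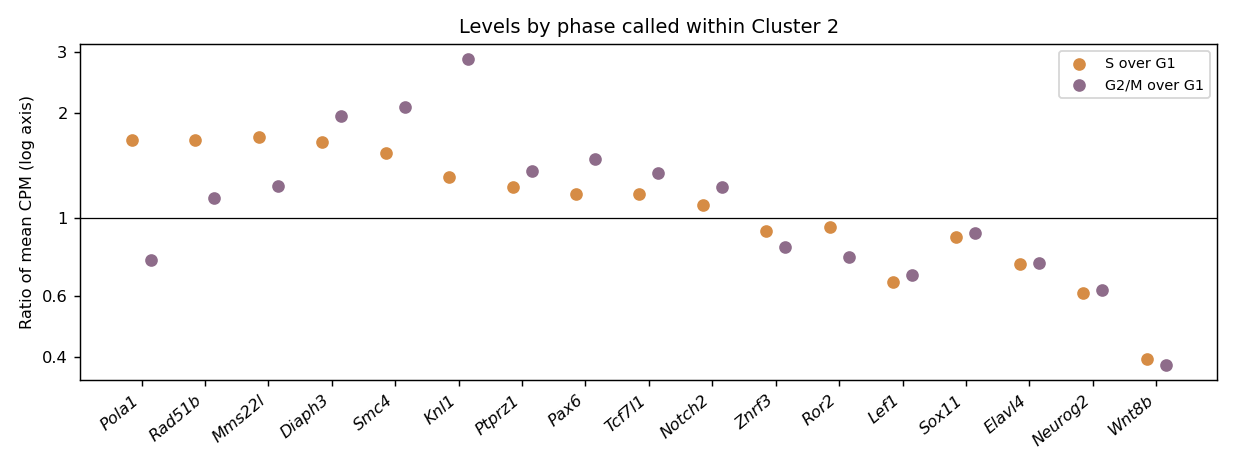
For genes that the phase calls had not used, the ratio of the mean CPM in S over G1 and in G2/M over G1 within Cluster 2 is plotted on a log axis, with 1 point per gene and ratio and a line at 1. Pola1 stands at 1.68 in S and 0.76 in G2/M, Knl1 at 2.86 in G2/M, and Neurog2 below 1 in both.

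The share of nuclei in Cluster 2 did not differ detectably between saline and EtOH. Cluster 2 made up 7.41%, 8.95%, 5.001%, 15.6% and 10.4% of the nuclei of the saline embryos and 9.11%, 8.94%, 4.65%, 6.88%, 9.42% and 9.65% of those of the EtOH embryos. The groups overlapped, and the highest and the lowest values were those of S2-2 and E2-1. The means were 9.47% ± 3.95 (SD, n = 5) and 8.11% ± 1.96 (n = 6), a difference of -1.36 percentage points (two-sided exact permutation p = 0.513, adjusted over 25 clusters 0.767). Without S2-4 the difference was -1.12 (exact p = 0.648).

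The share in each phase also overlapped between the groups. In S it was 33.4% ± 5.16 in saline and 34.9% ± 2.14 in EtOH (difference 1.48 percentage points, exact permutation p = 0.526). In G2/M it was 34.6% ± 7.73 and 33.2% ± 5.11 (difference -1.32, exact p = 0.729). In G1 the difference was -0.16 (exact p = 0.970), and the p adjusted over the 3 phases was 0.970 for each. Without S2-4 the differences were 1.37 in S (exact p = 0.610), 0.239 in G2/M (exact p = 0.938) and -1.61 in G1 (exact p = 0.695). The S list holds Mcm7, a gene that was itself called higher in EtOH, as described below.

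**Figure D4:**
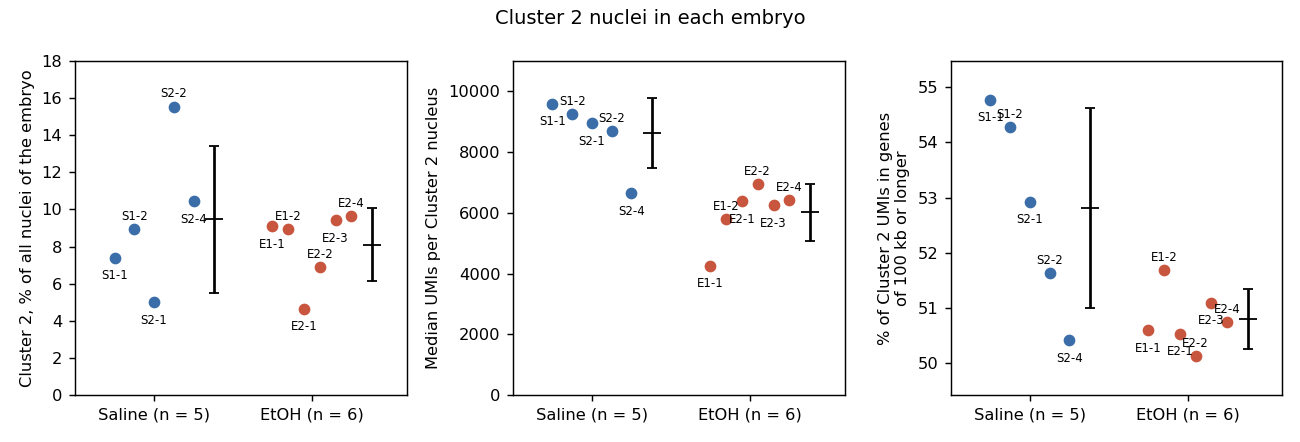
Points are embryos and bars are the mean and SD of the saline (n = 5) and EtOH (n = 6) groups, for the Cluster 2 percentage of nuclei, the median UMIs per nucleus and the percentage of UMIs in genes of at least 100 kb. The shares overlap, from 4.65% to 15.6%, whereas the median UMIs of S2-4 lie within the EtOH range and those of the other saline embryos lie above it.

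Gene expression was then compared between EtOH and saline across all genes with edgeR's quasi-likelihood test and Benjamini-Hochberg adjustment, where a differentially expressed gene (DEG) had to pass 0.05 after adjustment and be over 25% higher or over 20% lower in EtOH. Of 11837 genes tested, 85 were called (0.718%), 42 higher (0.355%) and 43 lower (0.363%) in EtOH. Folds were modest, with a median log2 fold change of 0.79 among the higher genes and -0.43 among the lower, and the adjusted p of every call lay between 0.0389 and 0.0499. Without S2-4, 1703 of 11910 genes were called (14.3%), 1232 higher (10.3%) and 471 lower (3.95%), and all 85 were kept. This rise was in part fixed in advance, because S2-4 was chosen for its likeness to the EtOH embryos. Batch 2 with all its embryos called no gene. Batch 1 and batch 2 without S2-4 shared 331 higher genes (50.5% of 656 and 48.5% of 683 calls). They shared 90 lower genes (of 409 in batch 1 and 492 in batch 2). Of all genes tested, 5.43% in batch 1 and 5.57% in batch 2 without S2-4 were called higher, and 3.38% and 4.01% lower. Each batch held a single dam per treatment, so treatment and dam cannot be told apart within a batch. On counts summed per dam, with 2 dams a treatment, 2 of the 85 were called, and in nuclei thinned to equal depth 11 of the 71 tested. Other tools called more genes with all embryos, 399 higher and 191 lower by DESeq2 and 210 and 52 by limma's voom with dam as a random block. The levels of saline and EtOH did not overlap for 50 of the 85, against 2.36% of all genes tested, a separation for which the 85 were in part chosen. S2-4 lay within the EtOH range for 34 of the 85.

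Removing S2-4 raised the number of calls, and removing any other embryo lowered it. By edgeR no gene was called without S1-1, S1-2, S2-1, E1-1, E2-1, E2-2 or E2-4, where 2196 to 2714 genes had an unadjusted p under 0.05, and 3, 14 and 1 were called without S2-2, E1-2 and E2-3. With library size as the only scaling no gene was called with all embryos (2698 genes at an unadjusted p under 0.05), and without S2-4 1500 were higher and 243 lower, which made 86.1% of the calls higher against 72.3% with the main scaling.

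The named higher genes are described first, with what each is known to do. Pcif1 (chr2:164879304-164894454, plus strand), which methylates adenosines next to the mRNA cap, stood at 17.4, 19.9, 19.7, 24.1 and 28.2 CPM in the saline embryos and at 32.9, 33.8, 40.2, 38.5, 36.3 and 40.7 in the EtOH embryos. The groups did not overlap, S2-4 was the highest of the saline embryos, and the log2 fold change was 0.71 ± 0.12 (SE; edgeR adjusted p = 0.0389). Pcyt2, an enzyme of phosphatidylethanolamine synthesis, stood at 41.9 ± 7.15 CPM in saline and 65.3 ± 6.85 in EtOH (log2 fold change 0.58 ± 0.10). Mecr, a reductase of mitochondrial fatty acid synthesis, stood at 46.2 ± 8.27 and 68.3 ± 4.02 CPM. Nr6a1 (chr2:38723370-38927688, minus strand), an orphan nuclear receptor that represses early embryonic genes, had the most counts of the named higher genes at 329 ± 70.6 and 484 ± 31.9 CPM, a log2 fold change of 0.51 ± 0.09, although S2-4 at 447 CPM overlapped the EtOH range. The long noncoding RNA BC046251 had the highest fold change of all the calls, at 4.23 ± 2.70 and 15.5 ± 4.29 CPM (log2 fold change 1.77 ± 0.31). Amd2 stood at 13.4 and 27.4 CPM, but its near-identical paralog Amd1 makes its reads uncertain. Without S2-4 the log2 fold changes were 0.81 for Pcif1, 0.67 for Pcyt2, 0.62 for Mecr, 0.62 for Nr6a1, 2.23 for BC046251 and 0.97 for Amd2. The remaining named higher genes, with the same adjusted p of 0.0389, were Ssbp4, Rnf167, Efhb and Atxn2l, and the noncoding genes 9430060I03Rik and Gm13427, at log2 fold changes between 0.44 and 1.17, and between 0.46 and 1.33 without S2-4.

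The named lower genes are described in the same way. Gria4 (chr9:4417896-4796234, minus strand), an AMPA receptor subunit, stood at 361, 335, 336, 284 and 288 CPM in the saline embryos and 240, 239, 187, 249, 264 and 229 in the EtOH embryos (log2 fold change -0.51 ± 0.09). Kcnd2, a potassium channel subunit, had the most counts of the named lower genes and went from 1298 ± 259 to 961 ± 46.4 CPM (log2 fold change -0.48 ± 0.09). Slc24a2, a sodium-calcium exchanger, and Cdh7, a type II cadherin, went from 37.3 to 22.6 and from 18.7 to 8.94 CPM. All 5 saline embryos lay above all 6 EtOH embryos for these 4 genes. Others act in signalling and transcription: Rock2, a kinase of the actin cytoskeleton, at a log2 fold change of -0.33 ± 0.06, Rps6ka6, a ribosomal S6 kinase, at -0.52, Rfx3, a factor for cilium genes, from 563 to 442 CPM, and Dach2, a dachshund factor, from 58.0 to 36.7 CPM. Cnot7, a deadenylase subunit, Lpgat1, Ivns1abp and Lmbrd2 completed the named lower genes. Without S2-4 the log2 fold changes were -0.56 for Gria4, -0.56 for Kcnd2, -0.79 for Slc24a2 and -1.17 for Cdh7, and lay between -0.78 and -0.36 for the others. The summed levels of 3 lists of neuronal genes are given beside these. The summed interneuron markers lay at 841 to 1214 CPM in saline, with S2-4 at 862.5, and at 341 to 838 in EtOH. The summed synaptic genes lay at 7279 to 9536 CPM in saline, the lowest in S2-4, and at 5948 to 7668 in EtOH. The summed projection neuron markers overlapped, at 2744 to 3229 CPM in saline and 2350 to 3895 in EtOH, with 4 of 12 genes positive. Of the interneuron markers 0 of 9 and of the synaptic genes 2 of 18 had a positive log2 fold change, none of the 3 lists held a gene called with all embryos, and the part of neuronal RNA in the lower genes was not tested. Reads of Pcif1, Nr6a1, BC046251, Rnf167, 9430060I03Rik, Gm13427, Rock2, Rfx3, Dach2, Cnot7, Lpgat1, Ivns1abp and Lmbrd2 cannot be told apart from those of a gene on the opposite strand if the counting ignored strand.

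**Figure D5:**
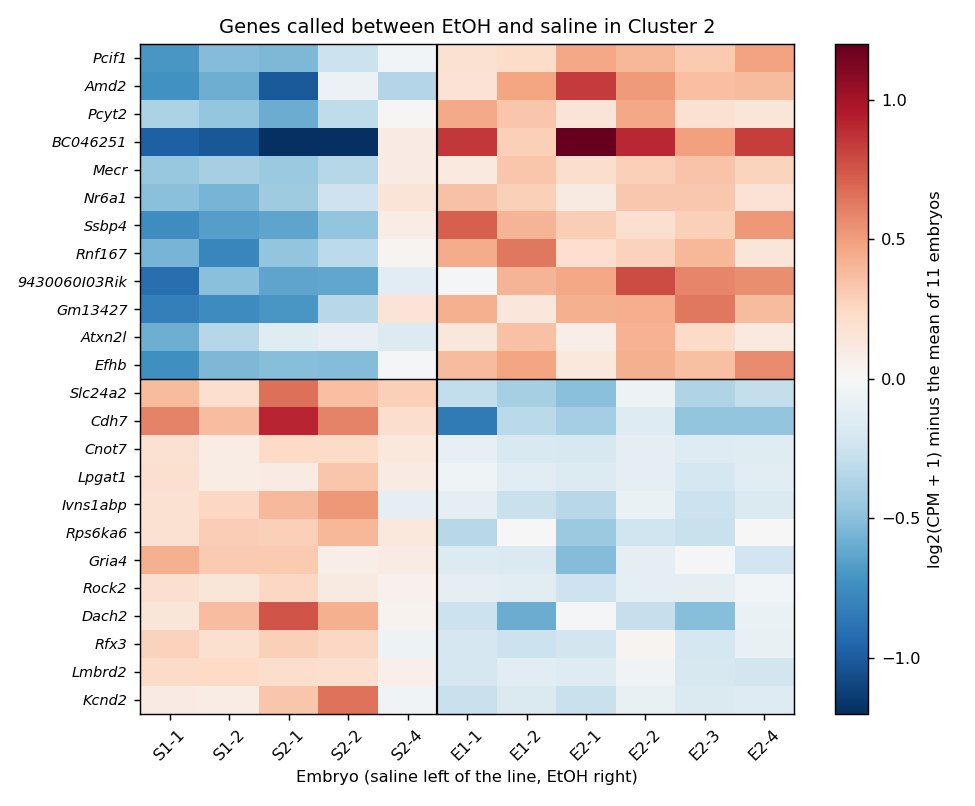
The colours show log2(CPM + 1) minus the mean of the 11 embryos for the 12 higher and 12 lower named genes (rows, higher above the line) in each embryo (columns, saline left of the line). The column of S2-4 is paler than those of the other saline embryos for most genes.

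Only 2 genes of the lists that describe Cluster 2 were called with all embryos, the commitment factor Sox11 and the replication helicase subunit Mcm7. Sox11 was 1 of 11 commitment genes tested and Mcm7 1 of 33 replication genes, and 0 of the authors' 100 markers were called. Of all genes tested 0.718% were called, so these 2 genes are described singly and not as a response of the lists. Sox11 (chr12:27334264-27342574, minus strand), a SoxC factor of neuronal differentiation, stood at 285, 267, 290, 346 and 175 CPM in the saline embryos, the last in S2-4, and at 165, 189, 178, 181, 146 and 173 in the EtOH embryos. S2-4 lay within the EtOH range and the other saline embryos lay above it. The log2 fold change was -0.72 ± 0.15 (edgeR adjusted p = 0.0486) and was -0.85 ± 0.07 without S2-4 (adjusted p = 2.36e-07), with -0.74 in batch 1 and -0.95 in batch 2 without S2-4. Mcm7 (chr5:138164583-138172422, minus strand) stood at 32.1, 35.5, 33.8, 44.8 and 50.8 CPM in the saline embryos and at 53.7, 64.8, 50.1, 61.0, 58.1 and 69.2 in the EtOH embryos. The groups overlapped by the single pair of S2-4 and E2-1. The log2 fold change was 0.55 ± 0.12 (adjusted p = 0.0408), or 0.64 without S2-4 (adjusted p = 0.000392). Mcm7 overlaps Cops6 and Ap4m1 on the opposite strand, and strand use in the counting is not stated in the sources used here.

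Apart from Mcm7 the proliferation lists held no call with all embryos. Of 33 DNA replication genes tested 1 rose and 0 fell, with a median log2 fold change of -0.02, and of 40 mitosis genes 0 rose and 0 fell, with a median of -0.00 and 20 positive values, against a median of 0.01 over all genes. Top2a was at 674 ± 160 CPM in saline and 779 ± 86.8 in EtOH (edgeR adjusted p = 0.496). Creb5 was at 2442 ± 101 and 2470 ± 220 CPM (adjusted p = 0.781). Of 13 genes of G1 progression and of 12 microcephaly genes none was called, with medians of -0.08 and -0.03. Top2a was at 933 CPM in S2-4 and at 514 to 678 in the other saline embryos, and without S2-4 its log2 fold change was 0.28 (adjusted p = 0.0647) and that of Creb5 -0.05 (adjusted p = 0.679). Without S2-4, when 14.3% of all genes were called, 2 of 33 replication, 4 of 40 mitosis, 1 of 13 G1 and 1 of 12 microcephaly genes were called. Mcm7 rose and Hells fell among the replication genes, Cdk1, Cdc20 and Aurka rose and Bub1 fell among the mitosis genes, Cdk2 fell among the G1 genes and Nde1 rose among the microcephaly genes. With library size as the only scaling no gene of the replication, mitosis and G1 lists was called lower without S2-4.

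Hes1, which marks the cluster, did not pass the test with all embryos. It stood at 63.4, 81.2, 74.1, 92.5 and 88.5 CPM in the saline embryos and 73.7, 111, 132, 104, 146 and 127 in the EtOH embryos, with a log2 fold change of 0.48 ± 0.14 (edgeR adjusted p = 0.0800). Without S2-4 it was 0.51 (adjusted p = 0.0447). E1-1 lay inside the saline range and the other EtOH embryos lay above it. Of 18 RGC identity genes none was called with all embryos, with a median log2 fold change of 0.16 and 12 positive, whereas without S2-4 2 rose (Hes1 and Vim) and 1 fell (Sox9), which is 3 of 18 where 14.3% of all genes were called. With library size as the only scaling and without S2-4, 6 of the 18 rose and 0 fell, where 12.6% of all genes were higher. Vim, the intermediate filament of radial glia, had a log2 fold change of 0.35 without S2-4 (adjusted p = 0.0125), and Sox9, a transcription factor of radial glia, -0.38 (adjusted p = 0.00892), a call that the library size scaling did not give.

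Other signalling genes showed the same dependence on S2-4, and are named here after their values were seen. Fgfr2, an FGF receptor of radial glia, stood at 556 to 595 CPM in the other saline embryos, 845 in S2-4 and 768 to 944 in EtOH, with a log2 fold change of 0.35 with all embryos (edgeR adjusted p = 0.0585) and 0.46 without S2-4 (adjusted p = 5.96e-05). Lfng, which modifies Notch receptors, stood at 11.98 to 14.2 CPM in the other saline embryos, 25.5 in S2-4 and 19.5 to 33.1 in EtOH (adjusted p = 0.0643 with all embryos and 0.000118 without S2-4). Notch2 had log2 fold changes of 0.29 and 0.33 (adjusted p = 0.0683 and 0.00606). For each of these genes S2-4 lay within the EtOH range. Fgfr2 was the only one of the 9 FGF receptors and targets called without S2-4. Notch2, Lfng and Hes1 were 3 of 18 Notch pathway genes called without it. Both counts lie near the 14.3% of all genes called in that fit. Sox11 was the only one of the 11 commitment genes called with or without S2-4. In the Wnt list 0 of 29 genes were called with all embryos, and without S2-4 1 rose and 2 fell, 3 of 29 where 14.3% of all genes were called. One of the 2 was Rspo2, a Wnt agonist of the cortical hem (log2 fold change -3.03, adjusted p = 0.0281), which was at 38.5 CPM in S2-2, at 5.57 to 9.53 in the other saline embryos and at 0 to 3.45 in EtOH. Other hem markers were also high in S2-2, with Wnt8b at 46.9 and Rspo3 at 95.3 CPM, and the summed hem and choroid plexus markers there reached 274 CPM, the top of the saline range of 92.8 to 274. Of the 8 hem and choroid plexus markers tested without S2-4, Rspo2 fell and Wnt3a rose. Wnt3a stood at 0.92 to 3.28 CPM in the other saline embryos, 6.25 in S2-4 and 3.44 to 9.78 in EtOH.

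Several lists held no called member with all embryos. The 9 Sonic hedgehog genes, the 12 genes of apoptosis and p53 and the 11 oxidative stress genes had a median log2 fold change of 0.01 each, the same as all genes, and the 18 apical junction genes had one of -0.10. Without S2-4 these medians were -0.03, -0.00, 0.00 and -0.12, and 1 of 12 apoptosis genes (Trp53) and 1 of 11 oxidative stress genes (Gpx4) rose, where 10.3% of all genes were higher. The 14 cholesterol synthesis genes were all positive, with a median log2 fold change of 0.16, and none was called with or without S2-4, while 2 rose without S2-4 with library size as the only scaling. The interneuron markers had a median of -0.61 over 9 genes and 0 positive, and Erbb4 and Nxph1 were among the genes that fell without S2-4. The microglia markers P2ry12 and Cx3cr1 rose without S2-4. Both overlap other genes on the opposite strand, and the part of microglial RNA was not tested.

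The lengths and annotations of the called genes are given as a description, beside those of the genes not called. The 42 higher genes had a median length of 13.55 kb, the 43 lower genes 61.9 kb and the genes not called 30.2 kb. Antisense-type genes made up 19.05% of the higher genes and 5.05% of those not called, and genes overlapping one on the opposite strand made up 69.0%, 48.8% and 51.0% of the higher, lower and not called genes. Without S2-4 antisense-type genes made up 27.2% of the higher, 1.94% of the lower and 2.59% of the not called genes, and genes with an opposite-strand overlap 70.7%, 50.1% and 48.8%. The part that gene length and RNA composition have in the calls was not tested.

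The response of Cluster 2 was compared with that of 2 other RGC clusters through the cluster by treatment term of edgeR, with the embryo as a block. Against Cluster 12, 0 of 11416 genes differed at an adjusted p under 0.05 (0%), and 483 had an unadjusted p under 0.05. The closest was Pcdh7, a protocadherin, which stood at 601 CPM in saline and 509 in EtOH in Cluster 2 and at 368 and 197 in Cluster 12, a difference of 0.64 ± 0.11 in log2 fold change (adjusted p = 0.0822). Without S2-4 it was 0.72 (adjusted p = 0.00165), and Sdk1 and Cyhr1 were also called. Opcml and Gm20754 followed at adjusted p = 0.216. Against Cluster 3, 0 of 12612 genes differed (0%), with 566 at an unadjusted p under 0.05. The smallest p values, of Klf7, Pigk, P3h2, Homer3 and A230006K03Rik, had an adjusted p of 0.895. With all embryos Pigk stood at 49.8 CPM in saline and 47.8 in EtOH in Cluster 2 and at 101 and 167 in Cluster 3, a difference of -0.82. Without S2-4 the difference was -0.98 and Pigk was called (adjusted p = 0.00372).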

How the data were processed

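Nuclei of 11 embryonic mouse cortices (5 saline, 6 EtOH) were analysed. The authors deposited UMI counts per gene and nucleus, one table per embryo and cluster, with clusters from their own analysis. The submitters' processing notes name mm10 and Cell Ranger. Whether counting used strand, and introns, is not given in the sources used here. No doublets were called. Counts of Cluster 2 nuclei were summed per embryo and CPM computed from them. Tests used edgeR 4.0.16 in R 4.3.3 (filterByExpr, TMM, robust quasi-likelihood, Benjamini-Hochberg) on the summed counts, with an adjusted p under 0.05 and a fold above 1.25 or below 0.8 as the call. DESeq2 1.42.0 and limma 3.58.1 were alternatives, and Seurat 5.3.0 called phases after thinning to 2000 UMIs. Of 23513 gene names 98.3% matched GENCODE on GRCm38. Single values were compared by two-sided exact permutation tests over embryos. The tests were also run on simulated data. For the fits of gene expression the simulated embryos were independent, with no dam effect and no embryo like S2-4. These runs therefore do not show how the fits behave with such features. Errors of levels are SDs over embryos, which share dams, and errors of log2 fold changes are SEs of the fit.

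The members and lists were chosen with earlier results of these data known. Named were the markers Creb5, Hes1 and Top2a, up to 4 genes a list by level, every called list gene, up to 12 called genes per direction with the smallest adjusted p, up to 5 genes a cluster for each test against another cluster, and the 5 most selective of the authors' markers. Genes called only without S2-4 were named after their values were seen. Fits without TMM, within batches, and pairing S2-4 with another choice were also chosen after seeing the data.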

Additional observations from a re-analysis of the deposited data

Results flagged for a closer look

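In 148 groups of values, of 5 saline or 6 EtOH embryos each, 13 had an embryo whose gap to its neighbour was large against the range of the group (8.78%), and chance gives this in about 1 in 20 groups. Of the 13, 8 were S2-4 in the saline group. There BC046251 stood at 8.95 CPM against 3.70 in the next embryo, Mecr at 60.8 against 44.5, Ssbp4 at 20.9 against 13.8, Efhb at 9.46 against 6.45, Fgfr2 at 845 against 595, Lfng at 25.5 against 14.2 and Cyhr1 at 77.7 against 33.5. Lmbrd2 stood at 62.1 CPM in S2-4 against 68.3 in the next embryo. In saline embryo S2-2 the hem markers Rspo2, Wnt8b and Rspo3 stood at 38.5, 46.9 and 95.3 CPM against 9.53, 23.04 and 37.8 in the next embryo. In the EtOH group Fgfr2 stood at 944 CPM in E2-1 against 834 in the next embryo, and A230006K03Rik at 11.05 in E2-2 against 5.05. The genes were in part named after their values were seen, with S2-4 and S2-2 in view.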

How the results depend on the processing

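With all embryos, calls higher and lower were 399 and 191 by DESeq2, 39 and 28 by upper quartile scaling, 207 and 311 with no filter on low counts, 7 and 7 on counts summed per dam, 210 and 52 by voom with dam as a random block, 10 and 21 in thinned nuclei, 94 and 128 without the nuclei of most UMIs, 0 and 0 in G1 nuclei only, 29 and 19 in S nuclei, 21 and 45 in G2/M nuclei, 0 and 0 without TMM, 656 and 409 in batch 1, 0 and 0 in batch 2, and 683 and 492 in batch 2 without S2-4. Without S2-4 the counts were 1118 and 554 by DESeq2, 1164 and 463 by voom, 1200 and 503 with batch as a term, 414 and 275 in thinned nuclei and 1500 and 243 without TMM. Leaving out 1 embryo gave 0 to 1232 higher and 0 to 471 lower, the highest without S2-4. Against Cluster 12 the count went from 0 to 1 with a batch term and from 0 to 3 over left-out embryos, and against Cluster 3 from 0 to 1. The difference in percentage of nuclei became 2.33 as a share of RGCs, 0.0728 by medians and 0.843 in batch 1, and ranged from -2.48 to 0.159 (without S2-2). The S difference was 5.34 in batch 1 and -1.26 in batch 2 and ranged from -0.0996 (without S1-2) to 2.86, G2/M was -4.48 in batch 1, 0.382 in batch 2 and -4.41 to 0.239 (without S2-4), and G1 was 1.75 with wider lists, 0.881 in batch 2 and -2.53 to 1.55. The UMI difference was -4398.5 in batch 1 and -1606 in batch 2, and -3122 to -2276 over left-out embryos. Over 26 named genes no setting reversed a sign, and the call was kept in 429 and lost in 415 combinations of gene and setting. The causes were not tested. These genes had been chosen as called in the same embryos, and the settings fit the same nuclei again. A stable sign was therefore in part fixed in advance. No paired analysis of embryos was possible because the numbers shared by the labels name embryos within a dam, not pairs. With batch as a term and all embryos, calls were 39 higher and 35 lower, and 66 of the 85 main calls were kept. Depth limits the genes tested in single phases.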

Other observations

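Other genes called in Cluster 2 with all embryos, named after their values were seen, included regulators outside the lists. Zbtb18, a transcriptional repressor that acts in the differentiation of cortical neurons, fell from 52.1 ± 9.19 to 35.4 ± 5.10 CPM. Its log2 fold change was -0.62 ± 0.14 (edgeR adjusted p = 0.0451) and -0.72 without S2-4, although S2-4 at 39.3 CPM lay within the EtOH range. Satb1, a chromatin organiser, fell from 136 ± 6.17 to 111 ± 12.7 CPM, with every saline embryo, S2-4 included, above every EtOH embryo. The imprinted gene Peg3 fell from 52.8 to 39.6 CPM (log2 fold change -0.47, and -0.51 without S2-4). The imprinted antisense RNA Kcnq1ot1 fell from 880 to 649 CPM (-0.50, and -0.59 without S2-4), but S2-4 at 687 CPM lay within the EtOH range of 558 to 725, below 866 to 991 in the other saline embryos. Hsp90aa1, a cytosolic chaperone, fell from 52.2 ± 5.73 to 38.7 ± 4.17 CPM. Cnp, a myelin enzyme, rose from 7.87 ± 3.70 to 18.3 ± 2.15 CPM (log2 fold change 1.10 ± 0.23, adjusted p = 0.0408, and 1.34 without S2-4). Without S2-4 the log2 fold change was -0.35 for Satb1 and -0.55 for Hsp90aa1. Kcnq1ot1, Zbtb18, Satb1 and Cnp overlap a gene on the opposite strand, whose reads cannot be told apart if the counting ignored strand.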
